A study of Homo sapiens with 24 samples.

Results

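The dual-specificity MAP kinase phosphatases (MKPs) were followed here in newly made RNA of glucocorticoid-treated U2OS cells. The genes were taken by name, as the rows of the exon count table whose Ensembl identifiers map to DUSP1, DUSP2, DUSP4, DUSP5, DUSP6, DUSP7, DUSP8, DUSP10, DUSP14 and DUSP16, which makes 10 of 61533 genes. All 10 were in the table. DUSP7 rose about 2-fold at 2 h and 3 h of dexamethasone in each line, and DUSP5 and DUSP8 fell at 3 h in each line. DUSP2 was higher at 2 h than at 0 h in every line, and this rise passed the test in both mutant lines but not in wt. No difference between lines in that rise was called. DUSP4 was close to absent, so its own RNA could not be compared between lines.

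MAP kinases are active when a threonine and a tyrosine of their activation loop are both phosphorylated, and the MKPs remove both phosphates. Several MKP genes are themselves switched on by MAP kinase signalling, so that they act as its negative feedback. DUSP1, also called MKP-1, is a well-known glucocorticoid-induced gene in many cell types and one of the routes by which glucocorticoids dampen inflammatory MAP kinase signalling. The members fall into classes by place and substrate. DUSP1, DUSP2, DUSP4 and DUSP5 are inducible nuclear enzymes, of which DUSP5 is specific for ERK. DUSP6 and DUSP7 are cytoplasmic and prefer ERK. DUSP8, DUSP10 and DUSP16 act mainly on JNK and p38. DUSP14 is a small atypical enzyme without the MAP kinase-binding domain of the others. DUSP9, a cytoplasmic MKP, is not on the list and is described with the other phosphatases near the end.

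The cells were U2OS, a human osteosarcoma line, made to express the glucocorticoid receptor (GR) with a C-terminal HaloTag from a CMV promoter on a PiggyBac transposon. The 3 lines carried wild-type GR (wt), the K492A mutant, whose affinity in vitro is reduced more for RNA than for DNA (SoF; its RNA binding in cells was not tested), or the R470A mutant, whose DNA binding is weakened to match that of SoF (Ctrl). Each line was 1 stable population, selected and sorted for its HaloTag signal, with fractions picked by immunofluorescence for like amounts of GR protein in the nucleus, so the receptor and the cell population cannot be told apart. Cells kept in charcoal-stripped serum were given the synthetic glucocorticoid dexamethasone at 100 nM for 1, 2 or 3 h, or were given 0.01% ethanol and are called 0 h, and all took up 200 µM 4-thiouridine (4sU) over the last 1 h. Treatment began with a change of medium, and each line had 1 set of ethanol libraries, not 1 for each time. Over the time course, hours of dexamethasone and hours since fresh medium therefore cannot be told apart. Newly made RNA that had taken up 4sU was biotinylated, purified and sequenced (4sU-seq). With 2 libraries for every line and time, the 12 groups held 24 libraries, 8 of each line.

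Total exon counts per library ranged from 8106036 to 15820806. Levels are in CPM, exon counts scaled to a common library total with TMM factors. The values were measured in bulk RNA, where fewer cells making a transcript and less of it per cell cannot be told apart. Of the markers listed for mesenchymal cells, VIM, FN1, SPARC, COL1A1 and RUNX2 had means of 102 to 1336 CPM, while COL1A2 averaged 0.257 CPM and TWIST1 0.00281 CPM. The keratins KRT8 and KRT18 were also made (174 and 250 CPM), and EPCAM was low (2.01 CPM). The blood markers averaged 0.939 CPM for PTPRC and at most 0.121 CPM for the rest. NR3C1, the gene of the expressed receptor, had a median of 633 CPM over the 8 wt libraries, against 2187 CPM for SoF and 2858 CPM for Ctrl, endogenous and introduced copies together. This is a level of RNA, while the lines had been matched by nuclear protein. A change was called at an adjusted p under 0.05 in the quasi-likelihood test of edgeR, with the Benjamini-Hochberg method applied over all tested genes, and every adjusted p below is of that kind unless DESeq2 is named. The scale of these comparisons was centred, with a median change over all tested genes between -0.04 and 0.02 on the log2 scale.

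The sequence upstream of 4 members is printed because they carry the largest called changes within a line among members for which the RefSeq table (GRCh38.p14) held an entry. DUSP1 and DUSP8 had fallen at 3 h, and DUSP2 and DUSP7 had risen at 2 h. Each run covers the 250 bases before the annotated start, 5′ to 3′ in the direction of transcription, and all 4 genes lie on the minus strand. The runs are at chr5:172771196-172771445 (DUSP1), chr11:1572272-1572521 (DUSP8), chr2:96145441-96145690 (DUSP2) and chr3:52056572-52056821 (DUSP7). Capitals mark matches on either strand to TGACG, the first bases of the cyclic AMP response element (CRE), to CACGTG, an E-box, to TGANTCA, the AP-1 motif, or to AGAACA, the hexamer bound by 1 GR subunit.
DUSP1: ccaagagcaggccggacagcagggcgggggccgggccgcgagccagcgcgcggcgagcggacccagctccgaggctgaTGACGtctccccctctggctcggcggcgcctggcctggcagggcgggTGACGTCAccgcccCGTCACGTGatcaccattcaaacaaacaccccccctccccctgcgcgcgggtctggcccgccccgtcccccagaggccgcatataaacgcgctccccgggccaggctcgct
DUSP8: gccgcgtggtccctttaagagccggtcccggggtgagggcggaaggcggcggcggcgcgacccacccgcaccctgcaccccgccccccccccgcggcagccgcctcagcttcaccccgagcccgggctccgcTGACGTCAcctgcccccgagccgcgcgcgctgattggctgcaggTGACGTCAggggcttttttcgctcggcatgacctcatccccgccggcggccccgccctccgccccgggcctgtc
DUSP2: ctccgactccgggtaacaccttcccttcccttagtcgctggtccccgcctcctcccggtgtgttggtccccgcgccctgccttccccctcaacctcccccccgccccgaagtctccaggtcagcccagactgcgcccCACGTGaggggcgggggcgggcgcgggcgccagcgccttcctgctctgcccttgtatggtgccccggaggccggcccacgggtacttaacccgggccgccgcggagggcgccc
DUSP7: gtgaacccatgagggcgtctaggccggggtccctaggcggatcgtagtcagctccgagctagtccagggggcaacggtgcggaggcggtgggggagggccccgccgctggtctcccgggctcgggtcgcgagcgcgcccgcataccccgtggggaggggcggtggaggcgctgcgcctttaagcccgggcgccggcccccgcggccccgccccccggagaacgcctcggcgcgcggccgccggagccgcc
DUSP1 held the full palindromic CRE, TGACGTCA, at bases -125 to -118 (counted back from -1, the base before the start) and DUSP8 held it at -118 to -111 and again at -74 to -67. Of the 35116 upstream windows of the same length in the table, 1.65% held TGACGTCA and 21.2% held TGACG, which the full element contains on both strands. DUSP1 had a further TGACG at -172 to -168 and another at -111 to -107, which overlaps its E-box at -108 to -103. DUSP2 had 1 E-box at -113 to -108, and CACGTG occurred in 6.34% of all windows. The DUSP7 window had no capital, but held GGGCGG, the GC box, at -94 to -89 and at -44 to -39. The DUSP1, DUSP8 and DUSP2 windows held GGGCGG too, as did 42.6% of all windows. None of the 8 members with an entry held AGAACA, which occurred in 12.4% of all windows. Nor did any hold the AP-1 motif or a CArG box, the serum response element core, which occurred in 6.57% and 1.16%. These are matches of letters, not measured binding. DUSP4 and DUSP5 had no entry.

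Per kilobase of merged exons, the members spanned more than 3 orders of magnitude before dexamethasone. In the 6 ethanol libraries DUSP1 had a median level of 557 CPM per kb (453 to 663) and DUSP2 of 129 (93.2 to 158). DUSP5 stood at 65.3 (34.8 to 81.0) and DUSP14 at 36.7 (26.2 to 54.0). DUSP16 stood at 15.3 (13.1 to 17.5), DUSP10 at 13.5 (11.1 to 16.8), DUSP8 at 10.8 (8.15 to 12.7) and DUSP7 at 10.4 (7.31 to 11.8). In that order DUSP1 lay above DUSP2, and DUSP2 above DUSP5, without overlap, whereas DUSP5 and DUSP14 overlapped, and so did each neighbouring pair from DUSP16 to DUSP7. DUSP1 lay at percentile 99.6 of all tested genes per kb over the 24 libraries, and DUSP7 at percentile 87.7. DUSP6, the cytoplasmic ERK phosphatase, had 0.177 CPM per kb (0.105 to 0.275), at percentile 4.2, and DUSP4 had 0.0194 (0 to 0.0393).

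**Figure D1:**
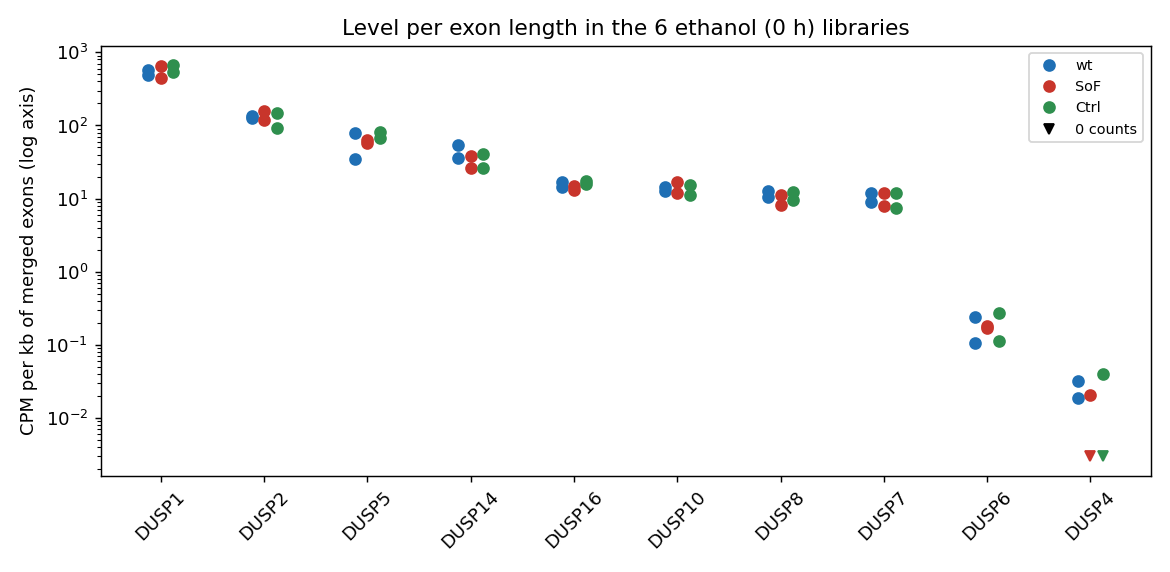
Level of each member in CPM per kb of merged exons (log axis) in the 6 ethanol libraries, 1 point per library, coloured by line; triangles at the bottom mark libraries with 0 counts. DUSP1 is highest with a median of 557, 8 members lie above 7 in every library, and DUSP6 and DUSP4 lie far below them.

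In the response to dexamethasone within each line, no member was called at 1 h, and more were called at 3 h than at 2 h. Of the 10 members, 9 passed the low-count filter and were tested (all but DUSP4), and DUSP6 passed with 1 to 14 counts per library, through the libraries where it was highest. At 1 h the count was 0 in each line (background 0.156% of 23651 genes called in wt, 0.165% in SoF and 0.0465% in Ctrl). At an unadjusted p under 0.05 in edgeR there were 4 members in wt, 3 in SoF and 0 in Ctrl. Over all 23651 genes this held for 2602 in wt, 1645 in SoF and 423 in Ctrl. DESeq2 called 1 member in wt (DUSP2, among 91 genes) and 0 in the mutant lines. At 2 h, 1 member was called in wt (background 4.6%), 2 in SoF (background 5.68%) and 2 in Ctrl (background 7.95%). At 3 h, 3 were called in wt (background 10.7%), 3 in SoF (background 19.3%) and 5 in Ctrl (background 14.2%). The median log2 change over the 9 tested members at 3 h was -0.57 in Ctrl, -0.13 in SoF and -0.17 in wt, against -0.02, -0.03 and -0.03 over all tested genes. The wt, SoF and Ctrl comparisons each use their own 0 h libraries.

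Same-numbered 0 h libraries deviated together across lines (correlations of 0.394 to 0.568 over genes), so the 6 ethanol libraries are not fully independent and p-values averaged over lines may be too small. Averaged over the 3 lines, 6 libraries against 6, DUSP2 was the single member called at 1 h (background 1.28%), and it had fallen. At 2 h 4 members were called (background 28.8%), of which DUSP2, DUSP7 and DUSP14 had risen and DUSP5 had fallen. At 3 h 5 members were called (background 40.3%), of which DUSP7 had risen and DUSP1, DUSP5, DUSP8 and DUSP16 had fallen. Set against these backgrounds, 4 or 5 of 9 tested members is not far above the share of all genes.

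**Figure D2:**
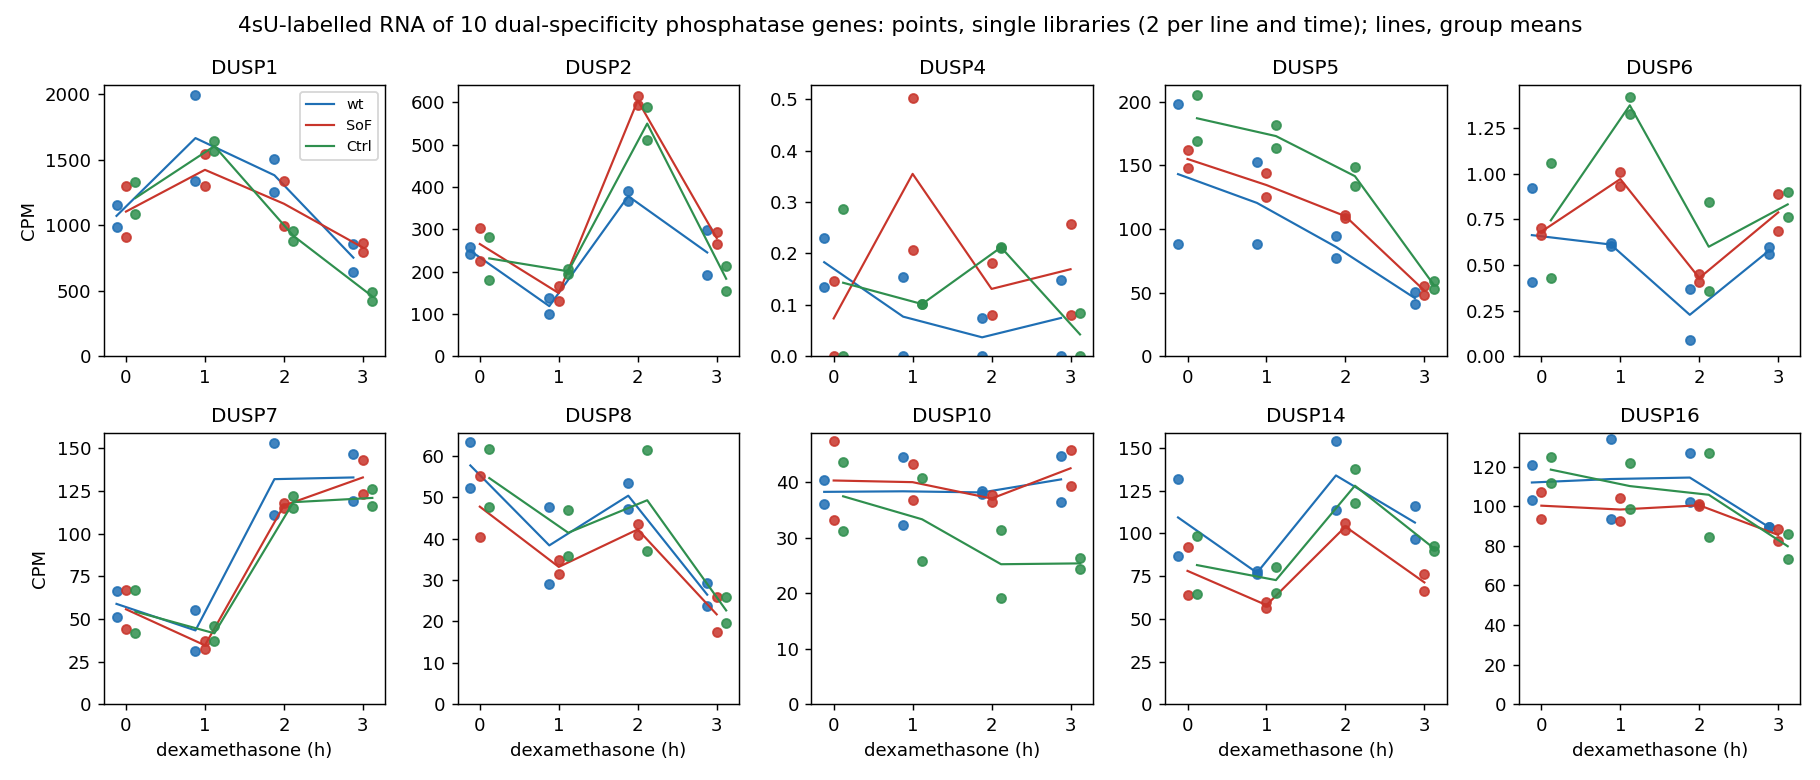
CPM of each member against hours of 100 nM dexamethasone (0 h is ethanol), with 1 point per library, 2 per line and time, and lines through the group means; each panel has its own axis from 0. DUSP7 is at 111 to 153 CPM in all 12 libraries at 2 h and 3 h and at 31.4 to 67.1 CPM in all 12 before, and DUSP5 is at 41.1 to 59.0 CPM in all 6 libraries at 3 h.

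Among the nuclear inducible phosphatases, DUSP1 was the most abundant member and did not rise in a way that passed the test in any line. In wt its level was 986 and 1158 CPM at 0 h, 1339 and 1994 at 1 h, 1255 and 1510 at 2 h, and 859 and 647 at 3 h. SoF had 1299 and 911 CPM at 0 h, 1545 and 1303 at 1 h, 1335 and 995 at 2 h, and 864 and 796 at 3 h. Ctrl had 1334 and 1084 CPM at 0 h, 1645 and 1566 at 1 h, 879 and 960 at 2 h, and 423 and 491 at 3 h. In each line both libraries at 1 h lay above both at 0 h, and both at 3 h lay below both at 0 h. The mean log2 change over lines was 0.47 at 1 h (SE 0.12, adjusted p 0.0554) and -0.78 at 3 h (SE 0.12, adjusted p 2.57e-05). The 1 h value lay at the edge of the threshold, since DESeq2 gave it an adjusted p of 0.0123 with a log2 change of 0.46, and edgeR called it without wt 1 h replicate 1 or SoF 0 h replicate 1. The fall at 3 h was called in Ctrl, where the log2 change was -1.40 (SE 0.21, adjusted p 1.56e-04). It was -0.51 in wt (adjusted p 0.127) and -0.41 in SoF (adjusted p 0.174), neither of which passed the test. With no low-count filter edgeR called DUSP1 in wt at 1 h (0.62, adjusted p 0.00814) and at 3 h (-0.51, adjusted p 0.0162). From 1 h to 3 h, a step that uses no ethanol library, DUSP1 fell in every line, with log2 changes of -1.81 for Ctrl, -1.15 for wt and -0.78 for SoF. The SoF step was not called without SoF 1 h replicate 1 (log2 change -0.64, adjusted p 0.0719) or without SoF 3 h replicate 2 (-0.69, adjusted p 0.0747).

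DUSP2, also called PAC1, first fell and then rose. In wt its level was 241 and 257 CPM at 0 h, 99.5 and 137 at 1 h, 390 and 366 at 2 h, and 192 and 298 at 3 h. In SoF it was 304 and 226 CPM at 0 h, 131 and 167 at 1 h, 615 and 593 at 2 h, and 264 and 294 at 3 h. In Ctrl it was 282 and 180 CPM at 0 h, 194 and 207 at 1 h, 510 and 589 at 2 h, and 154 and 212 at 3 h. All 6 libraries at 2 h lay above all 6 at 0 h, and at 3 h the levels again overlapped those at 0 h. The 2 h rise was called in SoF (log2 change 1.19, SE 0.22, adjusted p 0.00193) and in Ctrl (1.25, SE 0.22, adjusted p 0.0012). In wt the 2 h log2 change was 0.60 (SE 0.22, adjusted p 0.131), which did not pass the test, but was called with no low-count filter (0.57, adjusted p 0.0195). Each of the calls in SoF and Ctrl was lost when replicate 2 of that line's 0 h libraries, the lower of the pair, was left out, with log2 changes of 0.98 and 0.95. The fall at 1 h, called over the 3 lines together (log2 change -0.71, SE 0.13, adjusted p 0.00364), was -1.08 in wt (adjusted p 0.0522), -0.83 in SoF (adjusted p 0.225) and -0.21 in Ctrl (adjusted p 1.00). In Ctrl the libraries at 1 h lay within the range of those at 0 h. Without the 3 replicate 1 libraries at 0 h the mean fall was -0.54 and no longer called (adjusted p 0.0838).

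DUSP5, which acts on ERK in the nucleus, had the largest fall of the members. In wt its level was 88.2 and 198 CPM at 0 h, 87.9 and 153 at 1 h, 77.4 and 94.4 at 2 h, and 41.1 and 50.1 at 3 h. SoF cells had 148 and 162 CPM at 0 h, 125 and 144 at 1 h, 109 and 111 at 2 h, and 48.3 and 54.8 at 3 h. Ctrl cells had 205 and 169 CPM at 0 h, 182 and 164 at 1 h, 149 and 134 at 2 h, and 59.0 and 53.0 at 3 h. All 6 libraries at 3 h lay below every library of the earlier times, and the wt pairs at 0 h and 1 h differed most from each other. The 3 h log2 change was -1.65 in wt (SE 0.26, adjusted p 2.54e-04), -1.59 in SoF (SE 0.26, adjusted p 2.00e-04) and -1.74 in Ctrl (SE 0.26, adjusted p 1.54e-04). This is a level about 3.16-fold lower on average, and these calls held when any library of the contrast was left out. The size in wt moved with its 0 h pair, to -0.93 without wt 0 h replicate 2 and -2.13 without wt 0 h replicate 1. At 2 h DUSP5 was called over the 3 lines together, with a log2 change of -0.55 (SE 0.15, adjusted p 0.00776). It was called in no single line with all libraries and the low-count filter. In wt it was called with no low-count filter (-0.78, adjusted p 5.04e-04), and without wt 0 h replicate 1, at -1.24. The 2 h call over the lines was lost without wt 0 h replicate 2, the highest wt library, where the log2 change was -0.32. From 1 h to 3 h the log2 change of DUSP5 was -1.63 for Ctrl, -1.40 for wt and -1.38 for SoF, all 3 called. The wt step was -0.94 without wt 1 h replicate 2.

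DUSP4, the MKP-2 gene, had 38 counts in all 24 libraries together, 0 to 5 per library. It had 10 counts in wt, 16 in SoF and 12 in Ctrl (8 libraries each), with 0 counts in 3, 1 and 2 of those libraries. Scaled by depth, SoF over wt was 1.98 with an exact 95% interval of 0.845 to 4.88, SoF over Ctrl was 1.35 (0.601 to 3.14) and Ctrl over wt was 1.46 (0.579 to 3.78). These intervals cover counting error only. Each holds both a ratio of 1 and a 2-fold difference, so no difference in DUSP4 between lines was detectable at this depth.

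The cytoplasmic ERK phosphatases were DUSP7, which rose, and DUSP6, which was barely made. In wt DUSP7 was at 66.6 and 51.1 CPM at 0 h, 31.4 and 55.2 at 1 h, 111 and 153 at 2 h, and 119 and 147 at 3 h. The SoF libraries had 67.0 and 44.4 CPM at 0 h, 32.3 and 36.8 at 1 h, 118 and 115 at 2 h, and 123 and 143 at 3 h. The Ctrl libraries had 67.1 and 41.5 CPM at 0 h, 46.1 and 37.1 at 1 h, 115 and 122 at 2 h, and 116 and 126 at 3 h. All 12 libraries at 2 h and 3 h lay above all 12 at 0 h and 1 h, and those at 2 h and 3 h overlapped. At 2 h the log2 change was 1.16 in wt (SE 0.24, adjusted p 0.00658), 1.06 in SoF (SE 0.24, adjusted p 0.0102) and 1.12 in Ctrl (SE 0.24, adjusted p 0.00605). At 3 h it was 1.18 in wt (adjusted p 0.00263), 1.25 in SoF (adjusted p 9.55e-04) and 1.15 in Ctrl (adjusted p 0.003). Against 1 h, the 3 h level was 3.07-fold higher in wt, 3.85-fold in SoF and 2.91-fold in Ctrl, called in each line.

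Replicate 1 at 0 h lay above replicate 2 for DUSP7 in all 3 lines, by 0.38 in wt, 0.59 in SoF and 0.69 in Ctrl on the log2 scale. The size of the rise therefore moved with the ethanol library used. Without replicate 2 of the line's own 0 h pair the 2 h call was lost in each line (log2 change 0.98 in wt, 0.79 in SoF and 0.81 in Ctrl) and the 3 h call was lost in wt (1.02) and Ctrl (0.85). The 2 h call was also lost without wt 2 h replicate 2, SoF 2 h replicate 1 or Ctrl 2 h replicate 2. The same sign of the 0 h gap in all 3 lines was seen for DUSP8, DUSP10 and DUSP14 (replicate 1 higher) and for DUSP6 (replicate 2 higher). Over all lines at 3 h, DUSP7 had a log2 change of 1.19 (SE 0.14, adjusted p 7.00e-07), a call that held without any one library.

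DUSP6, a widely used readout of ERK activity in other cells, had 193 counts over the 24 libraries, 1 to 14 per library. Its highest levels were 1.33 and 1.42 CPM, in Ctrl at 1 h, and its lowest was 0.0867 CPM, in a wt library at 2 h. A long noncoding RNA on the opposite strand, ENSG00000274021, overlaps 1105 bases of its exons. No response of DUSP6 was called with all libraries in the fit. The log2 change over lines at 2 h, -0.79 (adjusted p 0.0978), was called without wt 0 h replicate 1, wt 2 h replicate 1 or Ctrl 0 h replicate 1. For DUSP6 the standard errors of its log2 changes over the lines together were 0.31 to 0.35. Counts summed over 8 libraries and scaled by depth were 1.64-fold higher in Ctrl than in wt (exact 95% interval 1.14 to 2.37, counting error only), while edgeR gave that difference an adjusted p of 0.21.

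Of the phosphatases directed at JNK and p38, DUSP8 had fallen at 3 h in every line. In wt its level was 63.2 and 52.1 CPM at 0 h, 29.0 and 47.7 at 1 h, 53.5 and 47.2 at 2 h, and 23.6 and 29.3 at 3 h. Its SoF level was 55.0 and 40.4 CPM at 0 h, 34.9 and 31.4 at 1 h, 40.9 and 43.5 at 2 h, and 17.4 and 26.0 at 3 h. Its Ctrl level was 61.5 and 47.7 CPM at 0 h, 35.8 and 47.0 at 1 h, 37.1 and 61.4 at 2 h, and 19.5 and 25.8 at 3 h. All 6 libraries at 3 h lay below all 6 at 0 h, and in each line both libraries at 1 h also lay below both at 0 h. The 3 h log2 change was -1.12 in wt (SE 0.25, adjusted p 0.0053), -1.14 in SoF (SE 0.26, adjusted p 0.00341) and -1.27 in Ctrl (SE 0.26, adjusted p 0.00199). The wt call was lost without wt 0 h replicate 1 or wt 3 h replicate 1, and the SoF call without SoF 3 h replicate 1 (smallest log2 changes -0.97 and -0.88). At 1 h the mean over lines was -0.51 (SE 0.14, adjusted p 0.102), at which DESeq2 gave an adjusted p of 0.035 and edgeR made the call without wt 1 h, SoF 0 h or Ctrl 0 h replicate 2, and at 2 h it was -0.17 (adjusted p 0.386).

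DUSP16, also called MKP-7, changed little until 3 h. In Ctrl its level was 125 and 112 CPM at 0 h, 122 and 98.4 at 1 h, 84.6 and 127 at 2 h, and 73.6 and 86.0 at 3 h. In wt it went from 103 and 121 CPM at 0 h to 89.4 and 89.7 at 3 h, and in SoF from 107 and 93.6 to 82.3 and 88.7. In each line the 3 h pair lay below the 0 h pair. The 3 h log2 change was -0.57 in Ctrl (SE 0.19, adjusted p 0.042), -0.32 in wt (adjusted p 0.292) and -0.23 in SoF (adjusted p 0.417), and -0.38 over the lines together (SE 0.11, adjusted p 0.00766). The Ctrl call was lost without any one of its 4 libraries, where the log2 change lay between -0.68 and -0.46.

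DUSP10, or MKP-5, stayed between 32.3 and 44.7 CPM in the 8 wt libraries and between 33.2 and 47.5 CPM in the 8 SoF libraries. In Ctrl it was at 43.7 and 31.3 CPM at 0 h, 40.8 and 25.9 at 1 h, 19.1 and 31.4 at 2 h, and 24.4 and 26.4 at 3 h. The Ctrl libraries at 3 h lay below both at 0 h, and below all 16 libraries of the other lines. The Ctrl log2 change was -0.57 at 2 h (SE 0.24, adjusted p 0.149) and -0.57 at 3 h (SE 0.24, adjusted p 0.114), so neither passed the test. With no low-count filter edgeR called both, at -0.59 (adjusted p 0.0491) and -0.57 (adjusted p 0.046). No change of DUSP10 was called in wt or SoF, where the 3 h log2 changes were 0.08 (SE 0.23) and 0.07 (SE 0.23).

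DUSP14, the atypical phosphatase also called MKP-6, had its lowest mean at 1 h and its highest at 2 h in each line. In wt its level was 132 and 86.8 CPM at 0 h, 76.0 and 78.0 at 1 h, 154 and 114 at 2 h, and 96.8 and 116 at 3 h. Its SoF values were 92.3 and 63.9 CPM at 0 h, 59.6 and 56.5 at 1 h, 106 and 102 at 2 h, and 66.4 and 76.3 at 3 h. Its Ctrl values were 98.6 and 64.4 CPM at 0 h, 80.5 and 64.9 at 1 h, 118 and 138 at 2 h, and 92.7 and 90.0 at 3 h. In SoF and Ctrl both libraries at 2 h lay above both at 0 h, and in wt they overlapped. Over the lines together the 2 h log2 change was 0.45 (SE 0.12, adjusted p 0.00824). Within lines it was 0.29 in wt (adjusted p 0.485), 0.40 in SoF (adjusted p 0.294) and 0.64 in Ctrl (adjusted p 0.063), none past the threshold. The Ctrl value lay at the edge, since it was called by DESeq2 (0.62, adjusted p 0.0494), with no low-count filter (adjusted p 0.0123), with a replicate block (adjusted p 0.0321) and in a fit on Ctrl by itself (adjusted p 0.0499). It was also called without Ctrl 0 h replicate 1 (0.98, adjusted p 0.0109), and was 0.36 without Ctrl 0 h replicate 2. Over the lines, without the 3 replicate 2 libraries at 0 h the mean was 0.18 and not called (adjusted p 0.277), and without the 3 replicate 1 libraries it was 0.76.

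**Figure D3:**
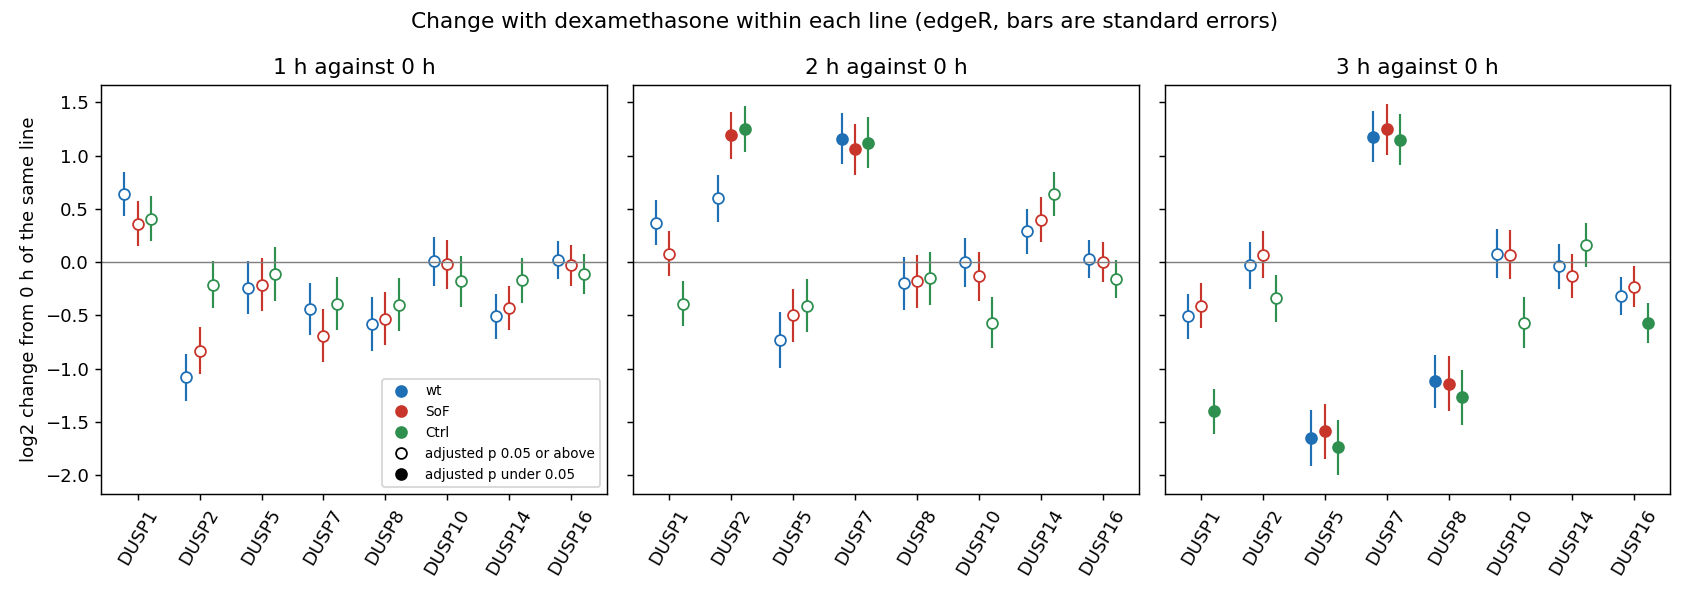
Log2 change of 8 members (all tested but DUSP6) at 1, 2 and 3 h against 0 h of the same line, from the edgeR fit over all 12 groups. Bars are standard errors, and filled points have an adjusted p under 0.05. At 3 h DUSP7 is filled above 0 and DUSP5 and DUSP8 are filled below 0 in all 3 lines, whereas DUSP1 and DUSP16 are filled in Ctrl alone; the difference between lines is tested separately in the text.

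The step from 1 h to 3 h was also tested, because it does not use the ethanol libraries, whose time in ethanol is not given. This step too holds both more hours of dexamethasone and more hours since the change of medium, which cannot be told apart. In wt and in SoF the same 4 members were called, with DUSP2 and DUSP7 higher and DUSP1 and DUSP5 lower at 3 h (background 16% in wt and 32.6% in SoF). In Ctrl DUSP7 was higher and DUSP1, DUSP5 and DUSP8 were lower (background 16.9%). DUSP2 had a log2 change of 1.05 in wt (SE 0.22, adjusted p 0.0031), 0.91 in SoF (SE 0.22, adjusted p 0.00408) and -0.13 in Ctrl (SE 0.22, adjusted p 0.735). The wt call for DUSP2 was lost without wt 1 h replicate 1 (the lowest) or wt 3 h replicate 2, and the SoF call without SoF 1 h replicate 1. The Ctrl call for DUSP8 (log2 change -0.87, adjusted p 0.0237) was lost without any of 3 of its 4 libraries.

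The study asked whether the response depends on RNA binding by GR, so the change from 0 h was compared between lines for each member by an interaction contrast. None of the 9 tested members was called in any of the 9 contrasts by edgeR, nor by DESeq2 (background 0% in 8 contrasts and 0.0127% in SoF minus Ctrl at 3 h). At an unadjusted p under 0.05 there were 1, 2 and 1 members in Ctrl minus wt at 1, 2 and 3 h, 1 in SoF minus Ctrl at 3 h and 0 in the other contrasts. Over all 23651 genes it held for 700, 617 and 845 in Ctrl minus wt and for 671 in SoF minus Ctrl at 3 h. At 3 h the SoF minus wt difference in log2 change was 0.10 for DUSP1 (95% interval -0.48 to 0.67), 0.06 for DUSP5, 0.08 for DUSP7 and -0.01 for DUSP8, with standard errors of 0.29 to 0.36. The 95% intervals of the other 3 were -0.66 to 0.77, -0.59 to 0.74 and -0.71 to 0.68.

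The largest differences between lines involved Ctrl. The largest of all were those of DUSP6, with few counts, at 1.14 in Ctrl minus wt at 2 h (SE 0.87) and 1.07 at 1 h (SE 0.76). For DUSP1 the 3 h log2 change was higher by 0.99 in SoF than in Ctrl (SE 0.30, 95% interval 0.41 to 1.57, unadjusted p 0.00283, adjusted p 1.00 in edgeR) and lower by 0.89 in Ctrl than in wt (SE 0.30, unadjusted p 0.00614, adjusted p 0.982). Both Ctrl libraries at 3 h, at 423 and 491 CPM, lay below all 4 libraries of the other lines, at 647 to 864 CPM. At 2 h the DUSP1 log2 change was lower by 0.76 in Ctrl than in wt (SE 0.29, unadjusted p 0.017 in edgeR). For DUSP2 the 1 h log2 change was higher by 0.87 in Ctrl than in wt (SE 0.31, unadjusted p 0.0112, adjusted p 0.976). At 2 h the DUSP2 log2 change was higher by 0.65 in Ctrl than in wt (SE 0.31, unadjusted p 0.049 in edgeR). In SoF it was higher by 0.59 than in wt (SE 0.31, unadjusted p 0.0726 in edgeR). For DUSP10 the 3 h log2 change was lower by 0.65 in Ctrl than in wt (SE 0.33, unadjusted p 0.0609, adjusted p 0.982). None of these passed the test over all genes in edgeR with its low-count filter. Without the filter the DUSP1 difference between SoF and Ctrl was called (log2 difference 1.01, adjusted p 0.00427). The differences from SoF and from wt share the Ctrl libraries.

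**Figure D4:**
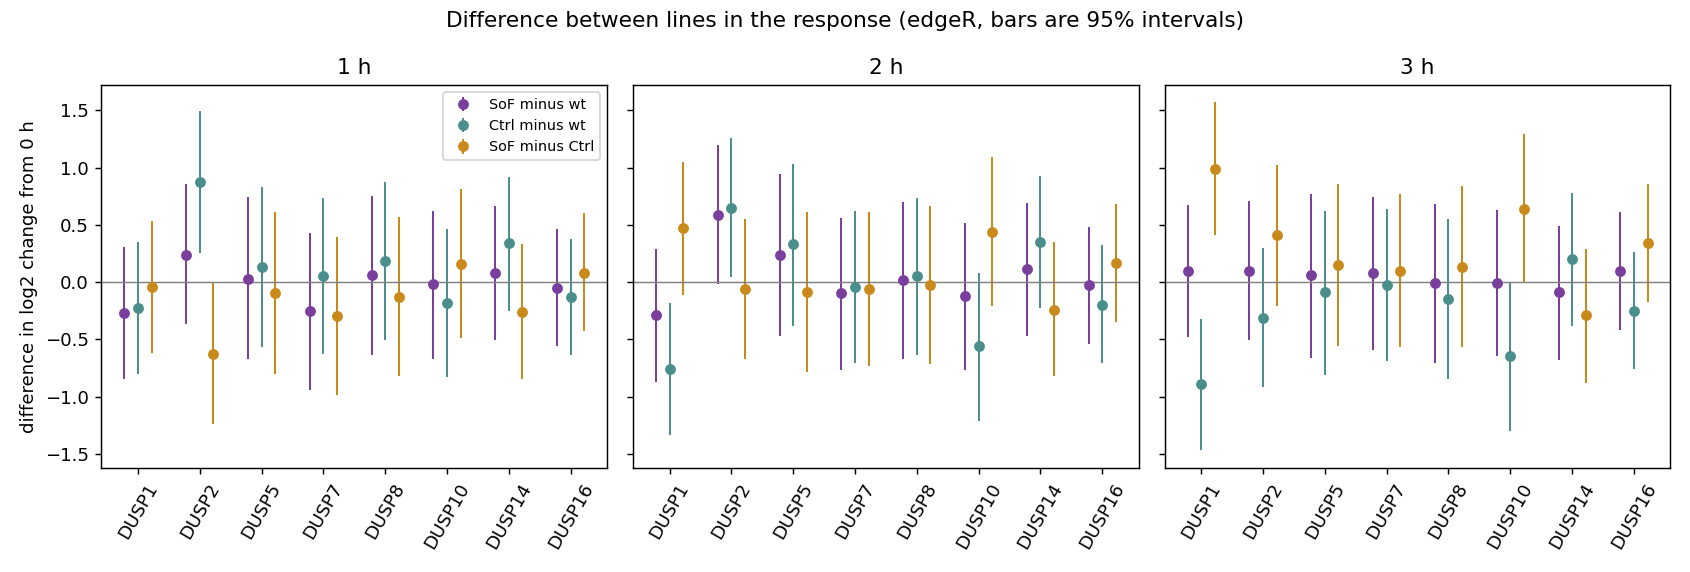
Difference between lines in the log2 change from 0 h, for 8 members (all tested but DUSP6) at 1, 2 and 3 h, with bars for 95% intervals. No difference passed the test over all genes, and the points farthest from 0 are DUSP1 at 3 h (0.99 for SoF minus Ctrl and -0.89 for Ctrl minus wt) and DUSP2 at 1 h (0.87 for Ctrl minus wt).

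The level of the members over all times was compared between lines with 8 libraries a line and time ignored. No member was called by edgeR or DESeq2 in any of the 3 comparisons (background 8.02% of 21122 genes in SoF minus wt, 4.77% in Ctrl minus wt and 3.61% in SoF minus Ctrl). At an unadjusted p under 0.05 there were 1, 2 and 1 members, against 5308, 3988 and 3019 of all 21122 genes. DUSP14 was lower in SoF, with 56.5 to 106 CPM and a median of 71.3 against 76.0 to 154 CPM and a median of 105 in wt (log2 difference -0.44, SE 0.17, adjusted p 0.101). DUSP10 was lower in Ctrl, with a median of 28.9 CPM against 38.2 CPM in wt and 38.5 CPM in SoF (log2 difference of SoF minus Ctrl 0.40, SE 0.13, adjusted p 0.0972). DUSP5 had a median of 156 CPM in Ctrl and 88.1 CPM in wt (log2 difference 0.50, SE 0.32, adjusted p 0.424). The ranges overlapped between lines for all 3 genes. With time added to the model, which takes the change over time out of the spread, DUSP14 was called in SoF minus wt (-0.45, adjusted p 0.0011), DUSP10 and DUSP5 in Ctrl minus wt (-0.36, adjusted p 0.0311, and 0.48, adjusted p 0.00572), and DUSP10 in SoF minus Ctrl (0.41, adjusted p 0.0197). Under that model 6134 of 21122 genes were called in SoF minus wt, 3965 in Ctrl minus wt and 2814 in SoF minus Ctrl.

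DUSP4 lies at chr8:29333064-29350684 (hg38, minus strand), within a stretch of the short arm of chromosome 8 whose genes had more labelled RNA in SoF. That stretch was already known from earlier results of these data. The paper also reports a cluster of genes higher in SoF cells on this chromosome, with SARAF among its example genes. The neighbour counts, and their contrast with the other members, therefore describe a known stretch and do not test it. Because DUSP4 itself could not be tested, its 20 nearest tested protein-coding genes, 10 on each side, were read in its place. Of these, 13 were called higher in SoF than in wt and the same 13 in SoF than in Ctrl, with median log2 differences of 0.67 and 0.86 over all 20. From the far left these were CCDC25, PBK, ELP3, ZNF395, FBXO16, FZD3, EXTL3, INTS9, HMBOX1 and KIF13B, and on the right SARAF, LEPROTL1 and DCTN6. KIF13B, a kinesin gene whose start lies at -87.6 kb from that of DUSP4, differed by 0.97 from wt (adjusted p 3.14e-07) and by 1.65 from Ctrl (adjusted p 1.05e-11). SARAF, a regulator of store-operated calcium entry starting 732.5 kb to the right, differed by 1.13 from wt (adjusted p 1.37e-11). The next gene to the right, RBPMS at 1033.8 kb, was lower in SoF (-0.45, adjusted p 0.00854), and the 6 genes beyond it were not called in SoF minus wt. DUSP4 thus had called neighbours on both sides. In Ctrl minus wt the median over the 20 was -0.13, with 1 gene called higher and 3 lower. Around the other 9 members, each with 20 neighbours chosen in the same way, the SoF minus wt median lay between -0.20 (DUSP7) and 0.23 (DUSP5), and at most 4 neighbours were called higher.

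**Figure D5:**
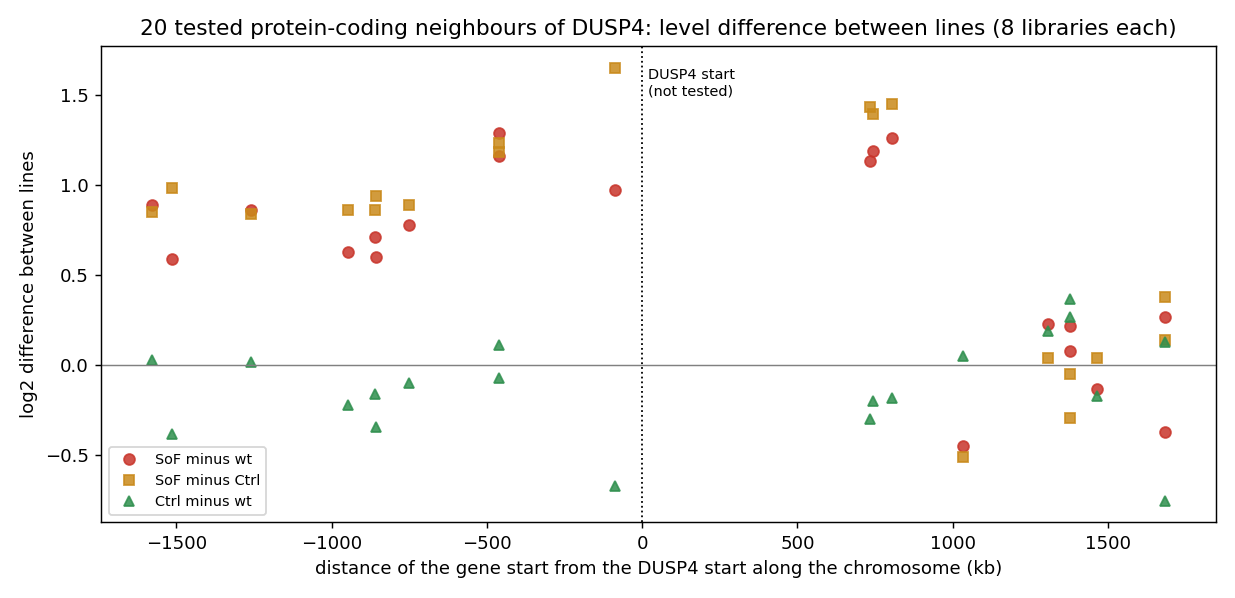
Log2 difference in level between lines for the 20 nearest tested protein-coding genes of DUSP4, against the distance in kb of their start from the DUSP4 start; circles are SoF minus wt, squares SoF minus Ctrl and triangles Ctrl minus wt (8 libraries a line). From -1578 to 805.6 kb both SoF differences are 0.59 or more, and beyond 1000 kb they lie between -0.51 and 0.38.

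Other genes of the pathway were read in the 3 h response averaged over lines (background 20.9% of genes higher and 19.3% lower, median log2 change -0.03). The lists were chosen with earlier results of these data known, so their counts are a description and not a test. Of 18 genes known to be induced by ERK signalling, 4 had risen and 13 had fallen, with a median log2 change of -1.35. EGR1, an immediate early transcription factor, went from a median of 4938 CPM at 0 h (2953 to 5682, 6 libraries) to 180 CPM at 3 h (132 to 229), a log2 change of -4.75 (SE 0.19, adjusted p 5.73e-14). The log2 change was -5.42 for EGR2, -3.99 for FOSB and -3.57 for ATF3. These falls were larger than that of DUSP5 (-1.66), and at 1 h the same 4 genes had log2 changes of -0.10, -0.47, -0.52 and 0.15.

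Of 12 tested MAP kinase genes, 5 had risen and 1 had fallen (median log2 change 0.23). MAPK12 (p38 gamma) rose by 0.77, MAPK3 (ERK1) by 0.72 and MAPK7 (ERK5) by 0.53. Of 10 kinases upstream of them, 4 had risen and 2 had fallen (median 0.04). MAP2K1, which activates ERK, rose from a median of 32.9 CPM at 0 h to 64.4 CPM at 3 h (log2 change 0.94, SE 0.09, adjusted p 5.72e-08), and MAP2K4, which activates JNK, rose by 0.42. MAP2K3 and MAP2K6, which activate p38, had log2 changes of -1.06 (adjusted p 3.84e-07) and -1.91 (adjusted p 8.12e-04), and MAP2K6 was at 4.66 CPM at 0 h. Of 9 tested inhibitors of ERK signalling, 3 had risen and 2 had fallen (median 0.02). SPRY2 fell by 0.64 on the log2 scale (adjusted p 2.00e-06), and SPRED1, SPRED3 and PEBP1 rose by 0.40, 0.41 and 0.44.

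Of 11 tested phosphatases and pseudophosphatases of the same superfamily outside the list, 5 had risen and 0 had fallen by edgeR (median log2 change 0.28). They included DUSP22, which rose by 0.56 (SE 0.14, adjusted p 0.0022), DUSP11, an RNA phosphatase, by 0.40 (SE 0.08, adjusted p 4.87e-04), and DUSP18 by 0.30 (SE 0.10, adjusted p 0.017). DUSP9, the cytoplasmic ERK phosphatase most related to DUSP6 and DUSP7, rose by 0.73 (SE 0.26, adjusted p 0.0301) from a median of 1.55 to 2.24 CPM. The 5 genes listed as direct glucocorticoid targets all rose, with FKBP5 going from a median of 27.6 to 219 CPM and PER1 from 107 to 227 CPM, and in the Ctrl line by itself 4 of the 5 were called. Among the marker lists, 3 of 6 tested mesenchymal genes had risen (ALPL, FN1 and COL1A1, by 1.24, 1.15 and 0.79) and 2 had fallen (among them RUNX2, by 0.67). Of 5 epithelial genes 0 had risen and 2 had fallen (CDH1 and CLDN4, with log2 changes of -2.08 and -0.77), and PTPRC, the 1 blood marker tested, had fallen (-0.89, adjusted p 0.0327).

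The genes whose log2 CPM was most like that of a member over the 24 libraries were sought among 13764 genes with a mean of at least 5 CPM, as a description, since all points share the same libraries and time course. DUSP7 had the closest companions, RIN1 (Pearson's r 0.981), MIEF1 (0.977) and UBL4A (0.976). DUSP5 was most like EBF1 (0.921), BTG2 (0.902) and EGR2 (0.901), and DUSP8 most like MAFF (0.919), ZYX (0.918) and NOCT (0.901). DUSP1 was most like ATP1B1 (0.916), GADD45A (0.842) and BCL6 (0.839), and DUSP2 most like FAM83G (0.91), METRNL (0.902) and RELB (0.898). DUSP14 was most like DRAP1 (0.914), CDK4 (0.907) and ILF2 (0.907). The closest gene reached 0.819 for DUSP10 (PLPP3), 0.831 for DUSP16 (the long noncoding RNA ENSG00000249456) and 0.794 for DUSP6 (RAB39A). Between the 9 tested members, the highest r was 0.77 (DUSP8 with DUSP16) and the lowest -0.68 (DUSP6 with DUSP14). DUSP7 had an r of 0.65 with DUSP2 and with DUSP14, and of -0.63 with DUSP5.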

How the data were processed

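The data are 4sU-seq libraries of newly made RNA, 24 in all, from U2OS cells. The authors tagged molecular identifiers with UMI-tools 1.1.2, trimmed reads with Trim Galore 0.6.6, aligned them to hg38 with STAR 2.7.3a, removed duplicates and counted reads over GENCODE release 39 exons with featureCounts. The deposited counts are whole numbers per gene and library, not normalized. That strand was used in counting is known from the table's title alone.

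Symbols and positions came from GENCODE release 44 (61369 of 61533 identifiers matched, 99.7%). The test was edgeR 4.0.16 under R 4.3.3 with limma 3.58.1, after TMM scaling and filterByExpr (minimum count 10, minimum total 15). A fit over 12 groups gave the responses and their differences between lines (23651 genes), and a fit on the line alone gave levels (21122 genes). Alternatives were DESeq2 1.42.0, other scaling, no filter, a replicate block, time as a term, the lines compared only, each library left out, and, chosen after seeing the data, a 0 h replicate left out in all 3 lines. Log2 CPM used a prior count of 2. The 95% intervals of log2 differences assume a normal error around the edgeR estimate. The test was checked on simulated data.

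The members and lists were chosen with earlier results of these data known. All members were named, with up to 4 called genes per list by smallest p, the 3 genes most like each member, and the neighbours of DUSP4 called in both SoF comparisons. Other genes given with values, RBPMS among them, were named after their values were seen. One gene that the rule would name is not reported here. Nothing says that the 2 libraries of a group came from separate cultures, so p-values measure the spread between these libraries. The biotinylation and pulldown were run on replicate pairs, so the run and the group cannot be told apart where a pair is 1 group.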

Additional observations from a re-analysis of the deposited data

Results flagged for a closer look

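Of 63 sets of libraries checked for a value far from the rest (each tested member within a line or within a time), 2 were flagged, and chance flags about 1 in 20 such sets. For DUSP7 at 2 h, the wt replicate 2 library was the highest of 6 at 153 CPM (7.26 on the log2 scale, the next 6.93), a gap of 0.717 of the range against a limit of 0.625. For DUSP10 at 2 h, the Ctrl replicate 1 library was the lowest of 6 at 19.1 CPM (4.27 on the log2 scale, the next 4.98), a gap of 0.710 of the range. The causes were not tested.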

How the results depend on the processing

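RLE scaling and a fit on the compared lines only moved no count of members called by more than 1.5 times. The 1 h counts of members moved most. The total of all genes called moved under the same settings, so these shifts are not particular to the members. For the lines together at 1 h this total was 303 in the main fit, 449 with DESeq2, 398 with the replicate block and 1035 with no low-count filter. For wt the main fit called 37 genes, DESeq2 91, the block 59 and the fit with no filter 516. Leaving out a 0 h replicate in all lines moved the totals as well. The counts that follow are of members unless all genes are named. In wt the count of 0 became 1 with DESeq2 (DUSP2), 1 with the replicate block (DUSP2), 2 with no low-count filter and 2 without the 0 h replicate 2 libraries. In SoF it became 2 and 3 under the last pair of settings. Over the lines together the count of 1 became 4 with DESeq2, 5 with no filter, 2 with the block (DUSP1 added, adjusted p 0.0437), 0 without the 0 h replicate 1 libraries and 5 without the replicate 2 libraries. At 2 h, the wt count of 1 became 3 with no filter and 2 without the 0 h replicate 1 libraries, the SoF count of 2 became 1 without the replicate 2 libraries, and the Ctrl count of 2 became 4 with no filter and 1 without the replicate 2 libraries. The count of 4 over the lines became 2 without the replicate 2 libraries. With no filter 1 member (DUSP1) differed in its 3 h response between SoF and Ctrl, among 52 genes in place of 3. With time in the model, 1, 2 and 1 members differed in level in SoF minus wt, Ctrl minus wt and SoF minus Ctrl. All genes called in these comparisons were 6134, 3965 and 2814, in place of 1693, 1007 and 763. The causes were not tested. DUSP14 at 3 h over the lines turned from -0.01 to 0.32 (adjusted p 0.0194) without the 0 h replicate 1 libraries.

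Leaving out single libraries gave 0 to 2 members at 2 h and 2 to 3 at 3 h in wt, 0 to 2 and 2 to 3 in SoF, 0 to 3 and 3 to 4 in Ctrl, and 0 at 1 h in each line. Over the lines it gave 1 to 4 at 1 h, 3 to 5 at 2 h and 5 at 3 h. From 1 h to 3 h it gave 3 to 4 in wt, 2 to 4 in SoF and 3 to 4 in Ctrl. Line levels gave 0 in SoF minus wt and 0 to 1 in the other comparisons, and response differences gave 0. A lone library was taken to have the pooled spread of the other groups. The number of all genes called also moved with the library left out, in responses and in levels, so these ranges are not particular to the members.

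The replicate numbers did not pair the samples throughout: of 66 pairs of groups, 21 had correlated deviations above 0.1 (range -0.22 to 0.57). The 3 pairs of 0 h groups did deviate together (0.394 to 0.568), as did the SoF 2 h pair with them (0.278 to 0.434), so leaving out a 0 h replicate in all lines bears on them. Beside the changes above, the block called DUSP14 in Ctrl at 2 h (log2 change 0.67, adjusted p 0.0321) and left the other calls on members as they were. Among single members, other settings left 1564 results on the same side of the threshold, with 44 gained, 8 lost and 1 turned, and single libraries left 1792, with 18 gained and 26 lost. The common biological coefficient of variation was 14.2% over 12 groups and 24% over lines. With 2 libraries a group, the standard errors of log2 changes within a line were near 0.2 for the abundant members and above 0.5 for DUSP6.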
